A study of Mus musculus with 2 samples.

Results

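The wide Lef1 peaks are the autosomal peaks of more than 125 bp in a map of Lef1 binding in mouse CD4+ T cells, chosen by the width of the called interval. They number 510 of the 2018 peaks listed on chromosomes 1 to 19 and of 2052 in all, and the other 1508 autosomal peaks are called narrow here. A further 6 peaks of that width lie on X and Y and are not members. Width is the deposited end minus the start, and is described and not tested. The map comes from chromatin immunoprecipitation followed by sequencing (ChIP-seq) with an antibody against Lef1. One library was made from conventional CD4+ T cells (TCRb+, CD4+, CD25-, and GFP- in the design text) of wild-type C57BL/6 mice aged 8 to 10 weeks, taken from the spleen. The other, from Lef1-deficient CD4+ T cells of CD4-Cre+ Lef1 fl/fl mice of the same strain, entered only as the background against which the peaks were called. CD4-Cre deletes in developing T cells that express CD4, so other cells of those animals keep Lef1. The labels put no CD25 gate on the deficient cells, give no age for them, and give the tissue of either library as naive CD4 T cells, so that the gates cannot be told apart from the genotype. Each group has 1 library and no replicate. Peaks show occupancy and not expression, so the cell type could not be checked by the level of its markers. Of 30 genes of T cell identity and receptor signalling 13 had a peak, and of 19 autosomal B cell genes 0 did. Among all protein-coding autosomal genes the share was 7.01%. Lists of NK cell, erythroid and liver genes also lacked peaks, and so did a list for CD8 and cytotoxic cells. Peaks were found at 2 of 19 myeloid, 2 of 19 neuronal and 2 of 20 housekeeping genes. The lists are short and were chosen with results of these peaks known. A count of 0 in them is near the background, so they do not settle the cell type.

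Lef1 is an HMG-box protein of the TCF/LEF family. These factors bind a short sequence whose core reads CTTTGA or CTTTGT, recruit β-catenin when Wnt signals stabilise it, and otherwise pair with Groucho corepressors. In T cells Lef1 and its relative Tcf1, the product of Tcf7, act in thymocyte development and in naive and memory cells. The width of a called peak is the stretch over which reads exceed the background, and so depends on the strength of a site, on the number of binding positions in it and on the length of the fragments.

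Where a wide peak overlapped a promoter, its sequence could be read from the RefSeq promoter windows (GRCm38.p6, the assembly that mm10 denotes; 250 bp before to 50 bp after an annotated start). The first sequences below come from the highest-scoring wide peaks that hold CTTTGA or CTTTGT on either strand in the covered bases upstream of the start and outside annotated genes. The one of Gtf2b is added for its pair of sites and that of Ralgapb as one without these letters, both chosen after their values were seen. Each is the covered stretch on the strand of the gene, with the matching letters in capitals.

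1190007I07Rik, chr10:82623244-82623435, minus strand: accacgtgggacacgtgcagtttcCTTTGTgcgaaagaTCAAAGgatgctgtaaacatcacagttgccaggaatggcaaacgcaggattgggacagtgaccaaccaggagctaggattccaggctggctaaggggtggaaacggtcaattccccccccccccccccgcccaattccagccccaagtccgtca
Tpra1, chr6:88902001-88902250, plus strand: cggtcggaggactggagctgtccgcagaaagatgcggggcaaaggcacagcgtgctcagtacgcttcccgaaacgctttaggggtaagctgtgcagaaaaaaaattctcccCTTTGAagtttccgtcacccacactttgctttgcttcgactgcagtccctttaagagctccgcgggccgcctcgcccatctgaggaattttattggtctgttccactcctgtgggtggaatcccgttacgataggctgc
Hspb6, chr7:30552394-30552534, plus strand: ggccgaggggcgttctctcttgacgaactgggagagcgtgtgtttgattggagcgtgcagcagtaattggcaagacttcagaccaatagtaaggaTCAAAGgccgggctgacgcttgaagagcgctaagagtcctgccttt
Ajm1, chr2:25580100-25580349, minus strand: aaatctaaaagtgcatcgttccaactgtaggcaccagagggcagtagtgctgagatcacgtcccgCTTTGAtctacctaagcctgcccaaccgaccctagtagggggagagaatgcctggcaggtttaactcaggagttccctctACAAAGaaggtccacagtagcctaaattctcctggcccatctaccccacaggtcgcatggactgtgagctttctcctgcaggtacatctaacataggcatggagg
Cacybp, chr1:160212904-160213084, minus strand: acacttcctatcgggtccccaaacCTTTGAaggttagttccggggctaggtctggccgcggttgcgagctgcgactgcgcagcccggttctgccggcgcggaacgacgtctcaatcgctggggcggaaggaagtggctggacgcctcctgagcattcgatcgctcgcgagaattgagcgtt
Ywhaq, chr12:21417452-21417686, minus strand: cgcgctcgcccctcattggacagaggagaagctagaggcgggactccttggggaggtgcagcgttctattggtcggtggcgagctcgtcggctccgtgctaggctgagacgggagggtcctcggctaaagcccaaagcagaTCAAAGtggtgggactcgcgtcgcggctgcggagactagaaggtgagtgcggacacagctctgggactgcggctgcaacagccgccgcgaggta
Snrpe, chr1:133610339-133610530, minus strand: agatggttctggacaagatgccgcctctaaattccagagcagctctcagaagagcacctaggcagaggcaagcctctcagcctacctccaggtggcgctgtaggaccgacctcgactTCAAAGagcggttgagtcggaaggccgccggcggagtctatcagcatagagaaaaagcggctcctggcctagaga
Gtf2b, chr3:142764997-142765078, plus strand: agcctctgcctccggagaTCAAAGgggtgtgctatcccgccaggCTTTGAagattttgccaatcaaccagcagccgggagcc
Ralgapb, chr2:158409651-158409820, plus strand: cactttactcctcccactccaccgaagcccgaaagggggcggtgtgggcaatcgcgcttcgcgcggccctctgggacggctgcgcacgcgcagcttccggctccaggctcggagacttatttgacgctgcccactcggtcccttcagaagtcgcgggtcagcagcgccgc

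The peak at 1190007I07Rik, an uncharacterised gene, scored 11.34 over 192 bp and held CTTTGT and, on the other strand, CTTTGA, 183 and 169 bp upstream of the start. Scores are deposited values of −log10 p for each peak. At Tpra1, which encodes a membrane protein, a peak of 466 bp scoring 9.55 covered the whole printed window, with a single match 139 bp upstream. The peak between Hspb6, a small heat shock protein gene, and Proser3 scored 9.22 over 301 bp, and 1 match served both divergent promoters. Cacybp encodes a protein that takes part in degrading β-catenin, and its peak scored 6.95 over 181 bp with a match 168 bp upstream. Ywhaq (6.91, 314 bp), a 14-3-3 protein gene, and Snrpe (6.54, 257 bp), a gene of the splicing machinery, held 1 match each. Ajm1 had a peak of 416 bp scoring 8.87, with matches 185 and 105 bp upstream. The peak at Gtf2b, which encodes the general transcription factor TFIIB, scored 4.99 and held CTTTGA 206 bp and its reverse complement 232 bp upstream. Ralgapb, a subunit gene of a Ral GTPase-activating complex, had a peak of 6.91 over 170 bp with no such letters in the printed stretch.

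Promoters under wide peaks held CTTTGA more often than promoters at large. Of the 94 promoters taken, 1 for each wide peak that overlapped one, 32 held CTTTGA or its reverse complement TCAAAG, or 34.0% (95% exact Clopper-Pearson interval 24.6 to 44.5%), against 14.2% of all 20085 promoters of protein-coding autosomal genes in the table. Of 131 promoters under narrow peaks, 25 held it, or 19.1% (12.7 to 26.9%), and the intervals of the wide and narrow sets overlap. The related CTTTGT showed no such excess, with 10.6% of the wide, 11.5% of the narrow and 16.6% of all promoters. The promoters under both kinds of peak were rich in CpG: 71.3% of the wide and 72.5% of the narrow set had at least 20 CpG in 300 bp, against 37.1% of all. Among CpG-rich promoters alone, CTTTGA was present in 22.4% of the wide set (15 of 67), 11.6% of the narrow set (11 of 95) and 6.98% of all 7451.

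The CTTTGA matches lay within the bases that the wide peak covered. Inside wide peaks there were 28 in 15144 bp, or 1.85 per kb (95% exact Poisson interval 1.23 to 2.67). The rest of the same windows had 5 in 13056 bp, or 0.383 per kb (0.124 to 0.894), and all promoters had 0.527 per kb. Inside narrow peaks there were 8 in 8707 bp, or 0.919 per kb (0.397 to 1.81), and outside them 0.621 per kb, so that these intervals overlap. The matches in wide peaks lay a median of 52.8 bp from the centre, with 15 of 28 in the middle 50% of the peak. Of the wide promoter peaks scoring at least 6, 9 of 17 covered such a match, against 3 of 14 from 5 to 6 and 15 of 63 of those under 5. The counts were not scaled to the bases covered. Over all autosomal peaks the median width was 148.5 bp from 6 to 8 and 216 bp from 8, against at most 99 bp in the classes below 6. The letters CGGAAG, the core of ETS sites, were as dense in wide peaks (2.11 per kb) as beside them (1.92), both above the 0.976 per kb of all promoters. GGGCGG, the core of Sp/KLF sites, was found in 83.0% of the wide set, 73.3% of the narrow set and 47% of all promoters, and in 85.1% of CpG-rich wide promoters against 81.5% of all CpG-rich ones. The RUNX core TGTGGT was present in 9.57% of the wide and 14.8% of all promoters, TATAAA in 4.26% and 12.7%, and CCAAT in 33.0% and 38.1%. TGACGTCA, the CRE site, was found in 4.26% of the wide, 4.58% of the narrow and 2.3% of all promoters. CTTTG followed by A or T at both next places, which overlaps CTTTGA and CTTTGT, was found in 35.1%, 17.6% and 14.5%. Among CpG-rich promoters alone, it was found in 23.9% of the wide set and 6.74% of all. There TGTGGT stood at 7.46% of the wide set and 8.25% of all, and TATAAA at 4.48% and 3.70%. In the same order CGGAAG stood at 38.8% and 35.7%, CCAAT at 31.3% and 33.8%, and TGACGTCA at 2.99% and 3.95%. Of these 9 patterns only CTTTGA and CTTTGT had been planned, and the others were added after motif values had been seen, as were the density inside peaks and the use of 1 promoter per peak. Over all 114 overlapped windows, the unit first used, 33.3% held CTTTGA under wide peaks, and 18.4% of 152 did under narrow ones. All searches covered both strands. These are letter matches and not sites, and the intervals cover counting error only. The difference between the sets was not tested.

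**Figure D1:**
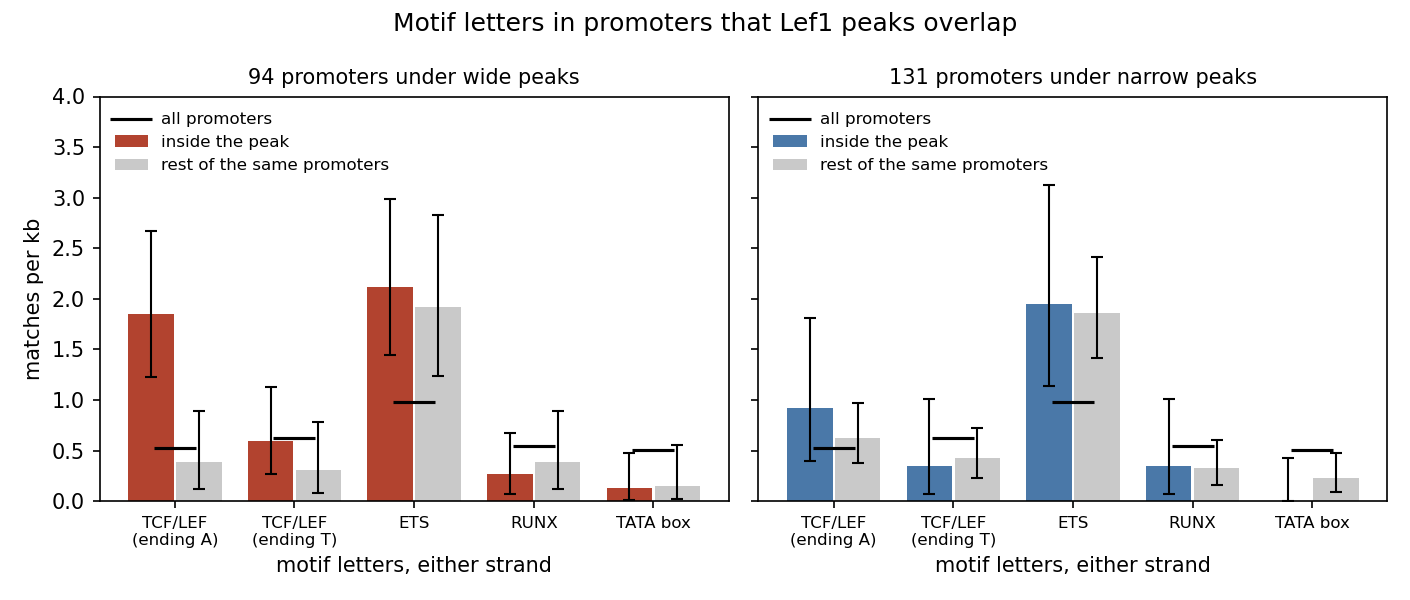
Matches per kb of motif letters inside Lef1 peaks (coloured bars) and in the rest of the same promoters (grey bars), for 94 promoters under wide peaks (left) and 131 under narrow peaks (right). Error bars are 95% exact Poisson intervals and black dashes the density in all promoters. CTTTGA ("TCF/LEF, ending A") stands at 1.85 per kb inside wide peaks and 0.383 beside them.

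Wide peaks reached 1141 bp with a median of 184.5 bp, and 84 reached 300 bp. Together they covered 110818 bp, or 49.6% of all the autosomal sequence listed. Their scores ran from 4.04 to 18.80 with a median of 4.99, against 4.40 for the narrow peaks, and 66 of them scored at least 8 against 21 narrow ones. Both values come from the same contrast of 2 libraries, so this is a description. Wide and strong were nevertheless different sets. Of the wide peaks, 86 had the most common score of the list, 4.40, and 137 scored less, while the highest autosomal score of all, 20.87, belonged to a narrow peak. Examples of long, low peaks were 452 bp scoring 4.33 at 2.43 kb from Map10 (chr8:125667160-125667611) and 448 bp scoring 4.33 inside Eipr1 (chr12:28834200-28834647). The share of peaks that were wide was 23.1% below 4.40, 10.6% at 4.40, 35.5% from there to 5 and 75.9% at 8 or more.

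**Figure D2:**
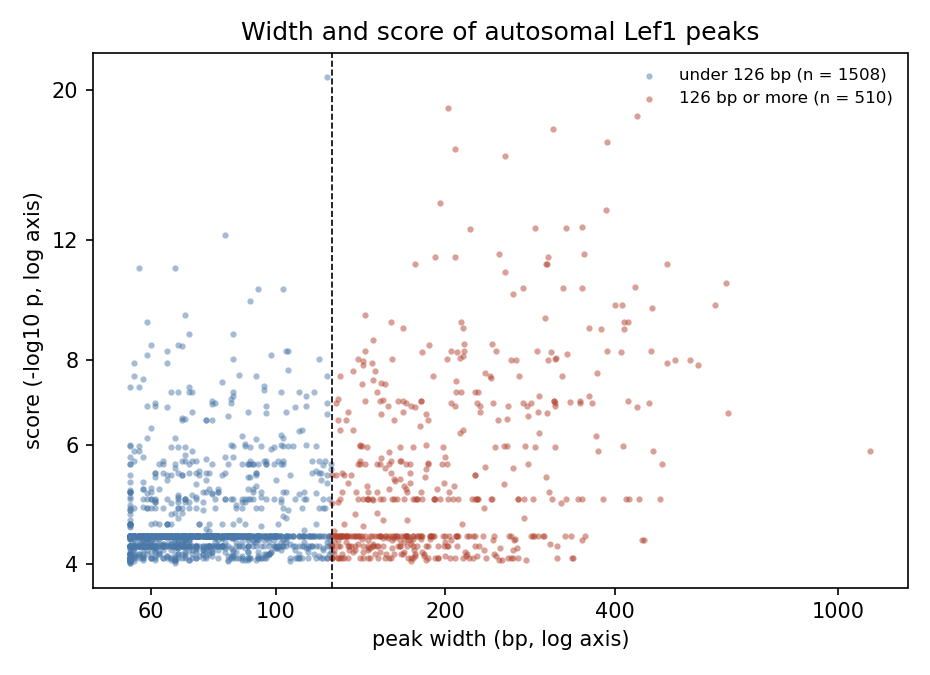
Width (horizontal, bp, log axis) and score (vertical, −log10 p, log axis) of each autosomal peak, with the 1508 narrow peaks in blue, the 510 wide ones in red and a dashed line at the smallest width of the wide set. The dense row at 4.40 runs across both sets, and the longest peak, 1141 bp at Axin2, scores 5.86.

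The threshold cuts a continuous range. Just inside it lay 8 peaks of equal width, the highest-scoring of them inside Abracl (5.41), Vgll4 (4.91), which encodes a cofactor of TEAD factors, Ptprk (4.40), Tob1 (4.25) and Lrrc1 (4.25). At 125 bp, just outside, lay 6, among them peaks 59.8 kb from Dock10 (5.63), inside Wwox (5.51), inside Zmynd11 (4.40) and inside Adss (4.25).

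The wide peaks gathered at the starts of genes. On the 18 autosomes with entries in the promoter table, 140 of 495 wide peaks lay within 1 kb of an annotated start of a protein-coding gene, or 28.3% (24.4 to 32.5%), against 243 of 1448 narrow ones, or 16.8% (14.9 to 18.8%; Fisher's exact test, two-sided, adjusted p = 1.38e-07). Distance was taken from the edge of the peak, which a greater width brings closer; from the centre the shares were 27.9% and 16.6% (Fisher's exact test, adjusted p = 2.53e-07). Only 6 wide peaks (1.21%) and 20 narrow ones (1.38%) lay within 1 kb of the 3' end of a gene and not of a start (Fisher's exact test, adjusted p = 1). Both tests saw only the 16457 of 20665 protein-coding autosomal genes in that table, so starts and 3' ends of the others were missed. On all 19 autosomes, 20 wide peaks (3.92%) and 87 narrow ones (5.77%) lay within 1 kb of a gene end and of no listed start. These tests of starts and 3' ends were added after first values around starts had been seen. The planned one took either end of a gene on all 19 autosomes, and gave a smaller difference: 26.5% (135 of 510; 22.7 to 30.5%) against 19.7% (297 of 1508; 17.7 to 21.8%; Fisher's exact test, adjusted p = 0.00235). The difference in starts missed the threshold at a width of at least 200 bp (24.3% against 19.1%, Fisher's exact test, adjusted p = 0.166) and among peaks scoring at least 5 (24.4% against 19.2%, Fisher's exact test, adjusted p = 0.406). The planned difference was also lost there, at 21.4% against 21.4% from 200 bp (Fisher's exact test, adjusted p = 1) and 23.7% against 22.0% from a score of 5 (adjusted p = 1). Peaks come from 1 library and neighbours are not independent, so each of these p-values over peaks is too small.

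The centres of wide and narrow peaks at a start lay at similar offsets from it. The start itself was covered by 47 of the 140 wide peaks and 34 of the 243 narrow ones, a count that a greater width raises. Of the 140 wide ones, 88 (62.9%) had their centre upstream, with a median offset of −73.5 bp (quartiles −170 and 95.3 bp). Of the 243 narrow ones, 142 (58.4%) did, with a median of −46 bp. The 250 bp before the start held 13.9% of wide and 6.63% of narrow peaks, and the 250 bp after it 5.66% and 3.87%. The genes were of many kinds, Gtf2b and Snrpe of the printed promoters among them. Of the gene lists below, Notch2, the gene of a Notch receptor, had a peak of 161 bp (4.40) with its centre 8 bp upstream. Txk, a Tec family kinase gene of T cells, had one of 234 bp (4.20). Its centre lay inside the gene, 122 bp upstream of an annotated start. At Tob1, an antiproliferative gene of quiescent T cells, the centre lay 1 bp from an annotated start.

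**Figure D3:**
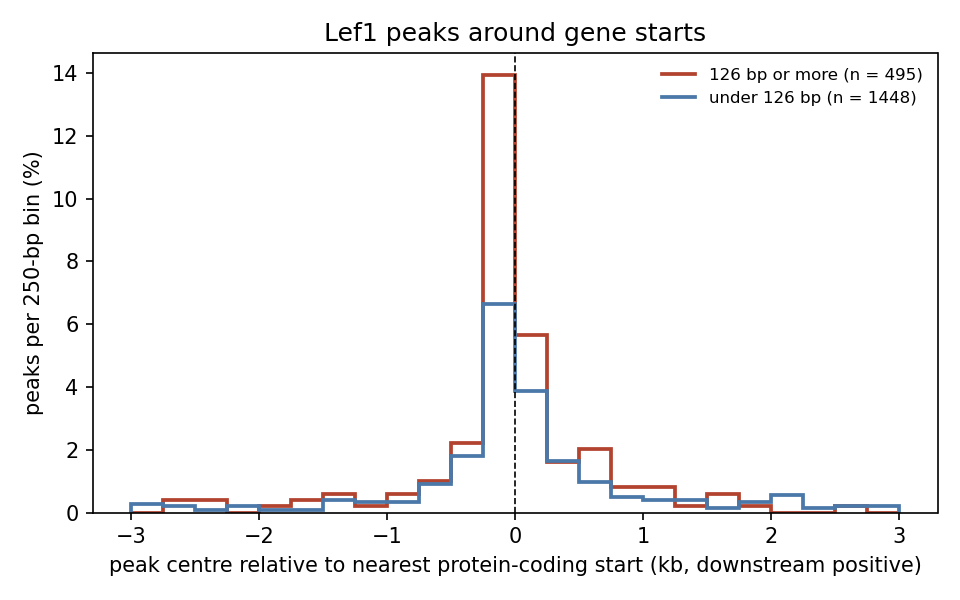
Share of wide (red, n = 495) and narrow (blue, n = 1448) peaks by the position of the peak centre relative to the nearest annotated start of a protein-coding gene (kb along the gene, upstream negative), in bins of 250 bp. The bin just upstream holds 13.9% of wide and 6.63% of narrow peaks.

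The relation to width was not a steady one. Within 1 kb of a start lay 12.6% of peaks of 55 to 63 bp and 20.4% (16.9 to 24.3%) of the widest of the narrow set, from 79 bp. With the wide set split by width into 4 classes of near equal size, the shares were 22.8%, 36.7% (28.1 to 45.9%), 33.9% and, from 255 bp, 20.2% (13.5 to 28.3%). At the same score of 4.40, wide peaks lay at a start in 22.9% of cases (19 of 83) and narrow ones in 7.06% (49 of 694; Fisher's exact test, adjusted p = 4.70e-05). The wide peaks that scored below 4.40 had the highest share, 40.3% (54 of 134), against 25.5% of narrow ones. Above 4.40 and under 6 the order was the other way, 27.1% against 30%, and from 6 the shares were 21.5% (15.2 to 28.9%) and 14.1% (7.26 to 23.8%), with overlapping intervals.

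**Figure D4:**
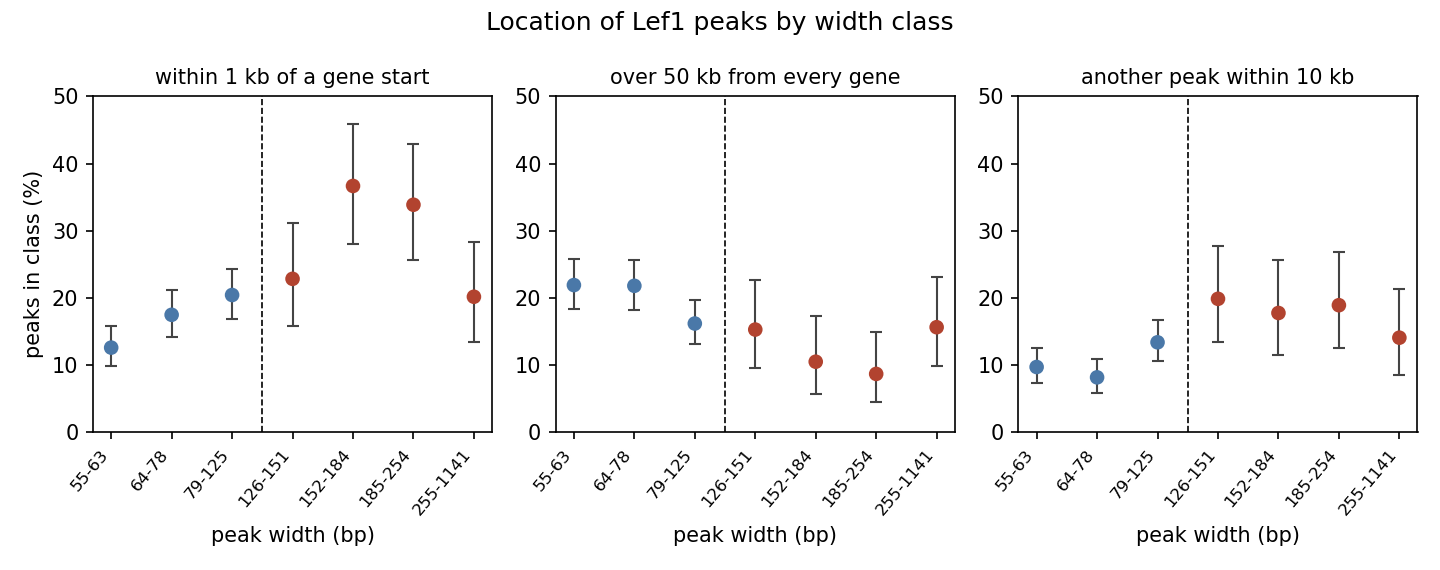
Share of autosomal peaks in each width class that lay within 1 kb of a protein-coding start (left), over 50 kb from every protein-coding gene (middle) and within 10 kb of another listed peak (right). Points are percentages with 95% exact Clopper-Pearson intervals, blue for 3 classes of narrow and red for 4 classes of wide peaks of near equal size. The share at starts is highest, 36.7%, at 152 to 184 bp.

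Inside protein-coding genes lay 278 wide peaks, or 54.5% (50.1 to 58.9%), and 49.8% of narrow ones (47.2 to 52.4%). This difference of 4.71 percentage points did not pass (Fisher's exact test, adjusted p = 0.0729), but passed when every annotated gene was counted (65.1% against 58.9%, adjusted p = 0.0138). Fewer wide peaks lay far from genes. Over 50 kb from every protein-coding gene were 64, or 12.5% (9.80 to 15.7%), against 301 narrow ones, or 20% (18.0 to 22.1%; Fisher's exact test, adjusted p = 0.000284). Among peaks scoring at least 5 the order was the other way and did not pass (15.4% and 11.9%, Fisher's exact test, adjusted p = 1). From 200 bp this difference also missed the threshold (adjusted p = 0.0636, Fisher's exact test). The table gives gene bodies without exons, so exons, introns and UTRs were not used here.

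Of the far wide peaks 16 of 64 (25%) scored at least 8, against 12.9% of all wide peaks. The highest, 18.80 over 202 bp, lay 451 kb from Tnc (chr4:64497856-64498057). One of 17.50 over 311 bp lay inside the long non-coding RNA gene 4933411E08Rik, 102 kb from Rap1b (chr10:117947985-117948295), and one of 16.0 over 255 bp, 101 kb from 4933412E24Rik, at chr15:59913962-59914216. Peaks of 302, 211 and 136 bp lay in Tcra, the T cell receptor α locus, which the table does not count as protein-coding, and scored 11.09, 4.40 and 4.40; these were singled out after their values were seen. Of the 64, 18 lay inside a long non-coding RNA gene and 54 within 50 kb of some annotated gene. Over 50 kb from every annotated gene lay 1.96% of all wide and 7.76% of all narrow peaks. The share of far narrow peaks inside long non-coding RNA genes is not given here, so the 18 are not read as a trait of wide peaks.

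Wide peaks had more close company than narrow ones. Another listed peak had its centre within 10 kb of 90 wide peaks, or 17.6% (14.4 to 21.2%), against 157 narrow ones, or 10.4% (8.91 to 12.1%; Fisher's exact test, adjusted p = 0.000126). Most neighbours of either set were very close: 64 of the 90 wide and 117 of the 157 narrow peaks had one within 1 kb. When peaks within 1 kb were merged into sites, 5% of 500 wide sites and 3.02% of 1425 narrow ones had another site within 10 kb, and the call was lost (Fisher's exact test, adjusted p = 0.0639). It was lost too from 200 bp (16.8% against 11.7%, Fisher's exact test, adjusted p = 0.0753) and from a score of 5 (18.0% against 17.9%, adjusted p = 1). Of the 90, 28 had another wide peak as a neighbour and 62 had narrow ones alone. The runs of 3 peaks or more that held a wide one lay near Il6st, Dnaaf5, Tmem267, Tagap and Pdk1.

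Over the autosomes wide peaks stood at 0.210 and narrow ones at 0.621 per Mb of the span between the first and last protein-coding gene. Chromosomes 19 (0.414 per Mb) and 11 (0.361) had the most wide peaks for their length and chromosome 3 (0.141) the fewest. Narrow peaks were dense on chromosomes 19 and 11 as well (0.776 and 0.755 per Mb). For their number of protein-coding genes, chromosome 12 had the most wide peaks (4.42 per 100 genes) and chromosome 7 the fewest (1.48). The share of a chromosome's peaks that were wide ran from 20% on chromosomes 3 and 18 to 34.8% on chromosome 19. No chromosome differed from the others in that share by Fisher's exact test, with 0% called, a smallest adjusted p of 0.645 and 0 of 19 at an unadjusted p under 0.05.

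Peaks were assigned by the centre, to the closest protein-coding gene body within 50 kb. Of the wide peaks 446 were assigned, to 423 genes, which is 2.05% of the 20665 protein-coding autosomal genes; any peak was assigned to 7.01% of them. Among assigned peaks of all genes, 27% were wide. In the 12 lists of T cell and Wnt genes, 28 of 245 genes (11.4%) had a wide peak and 66 had any, and 35 of their 97 peaks (36.1%) were wide. Of 123 genes of B cell, myeloid, NK cell, erythroid, liver, neuronal and housekeeping lists, 1 had a wide peak and 6 had any. Lists share members and were chosen with results of these peaks known, so the counts are given without a test.

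**Figure D5:**
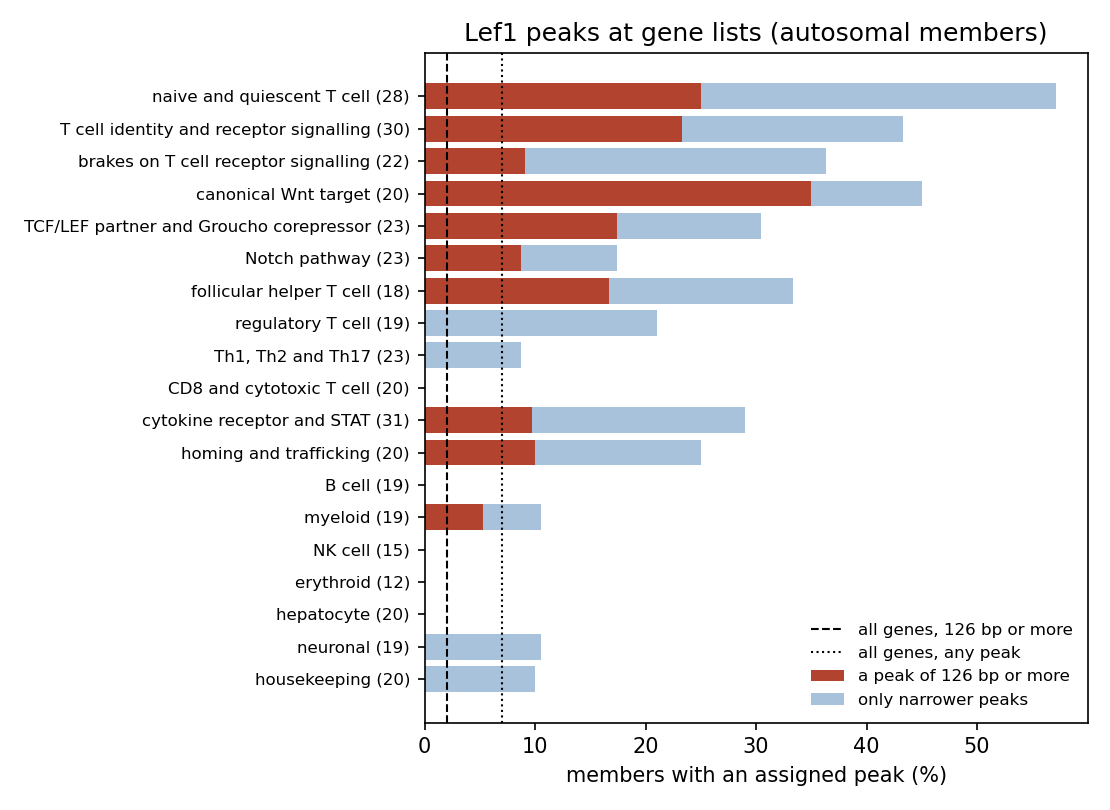
Share of the autosomal members of each gene list with a wide peak (red) or with narrower peaks alone (light blue) assigned within 50 kb, with the number of members in brackets. The dashed line marks the 2.05% of all protein-coding genes with a wide peak and the dotted line the 7.01% with any peak. Canonical Wnt targets have the longest red bar, 35%.

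Among the 19 lists, a wide peak was most frequent at canonical Wnt targets, at 7 of 20 (35%, beside 2.05% of all genes). Of their 21 peaks 12 were wide (57.1%, beside 27% over all genes), with a median of 350.5 bp for the wide ones. The longest peak of all, 1141 bp scoring 5.86, began inside Axin2, the scaffold gene of the β-catenin destruction complex, with its centre 427 bp downstream of an annotated start (chr11:108920206-108921346). A narrow peak of 57 bp (4.28) followed close behind it. Tnfrsf19, a TNF receptor family gene, had peaks of 512 bp (8.00) 402 bp inside its start and of 438 bp (6.82) 9.86 kb upstream. Znrf3, whose ubiquitin ligase clears Frizzled receptors from the membrane, had one of 328 bp (12.52) inside the gene and one of 257 bp (5.98) across its high-coordinate end at 5444847 on chromosome 11. Cd44, an adhesion receptor gene, had one of 128 bp (6.91) lying 6.92 kb beyond the gene. The Wnt antagonist gene Dkk1 (2 peaks of 80 and 85 bp) and Rnf43, a relative of Znrf3 (3 peaks, at most 120 bp), had narrow peaks alone.

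Of the TCF/LEF family genes, Tcf7, Lef1 and Tcf7l2 had wide peaks, and Tcf7l1 had no assigned peak. Tcf7 was the only gene with 3. They measured 156 bp (5.53), 175 bp (4.08) and 637 bp (6.68), and lay 1.40, 26.5 and 31.4 kb upstream of an annotated start on chromosome 11. That start lies inside the gene body, from which their centres lay 1.03, 26.2 and 31.0 kb. The peak of 637 bp was the second longest of the list (chr11:52314059-52314695). The peak nearest that start, 353 bp upstream, was narrow (91 bp, 4.40) and had its centre inside the gene body. Lef1 had 1 wide peak, 373 bp scoring 7.65, 4.26 kb upstream of its start, while the 2 peaks inside the gene measured 55 bp each. The floxed stretch of Lef1 is missing from the DNA of the control, and its place in the gene was not used here. Tcf7l2 had peaks of 386 bp (13.29) and 170 bp (5.63) inside the gene, 123 kb apart. Of the partners, Axin1 had a wide peak (137 bp, 4.17), and Ctnnb1, which encodes β-catenin, the kinase gene Gsk3b and Csnk1a1 had narrow peaks alone. In all 4 of 23 members of the partner list had a wide peak (17.4%, beside 2.05% of all genes). Of the peaks of that list 7 of 13 were wide (53.85%, beside 27% over all genes). All of these wide peaks but that of Axin1 are those of Tcf7, Lef1 and Tcf7l2 given above. The same peaks count in the Wnt list too, so the shares of the 2 lists are not separate results.

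Of the 28 genes that mark naive and quiescent T cells, 7 had a wide peak (25%, beside 2.05% of all genes) and 9 narrow peaks alone. Of the 28 peaks of these genes 9 were wide (32.1%, beside 27% over all genes). These include the 3 wide peaks of Tcf7 and the 1 of Lef1, which are counted in the Wnt and partner lists as well. The strongest was at Satb1, a chromatin organiser gene, with 208 bp scoring 16.36 at 46.1 kb upstream of its start (chr17:51879334-51879541), while its other 3 peaks measured 58 to 87 bp. Nsg2 had 140 bp (8.01) inside the gene. Il6st, the gene of the shared chain gp130 of interleukin-6 family receptors, had 333 bp (6.92) at 39.1 kb upstream. The highest-scoring of its peaks (8.72) was a narrow one of 70 bp, 36.4 kb upstream. Ccr7, S1pr1, Bach2 and Foxp1, all genes of naive T cells, had narrow peaks alone, of 55 to 82 bp.

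Among T cell identity and receptor signalling genes 7 of 30 had a wide peak (23.3%, beside 2.05% of all genes). Of their 16 peaks 7 were wide (43.75%, beside 27% over all genes). Ptprc, which encodes CD45, the phosphatase that activates Lck, had the strongest (350 bp, 12.57) inside the gene, 12.3 kb from an annotated start. Prkcq, a protein kinase C gene, had 168 bp (6.95), and the adaptor gene Trat1 153 bp (5.63). The wide peaks of Txk (234 bp), the costimulatory receptor gene Cd28 (194 bp) and the adaptor gene Fyb (167 bp) scored 4.20, 4.08 and 4.14. High scores also fell on narrow peaks: Cd247, the ζ chain gene, had 7.22 over 95 bp, and Zap70, the kinase bound to that chain, 7.07 over 84 bp. Of the genes that restrain receptor signals 2 of 22 had a wide peak (9.09%). Their peaks were wide in 3 of 11 cases (27.3%), near the 27% over all genes. Dgka, a diacylglycerol kinase gene, had 221 bp (12.45) at 1.30 kb upstream of its start, and the ubiquitin ligase gene Cblb had 186 bp (5.63) upstream and 250 bp (4.23) inside, 193 kb apart. Csk, the kinase that inhibits Lck, had a narrow peak of 113 bp (6.84), and Ctla4 and Pdcd1 also had narrow peaks alone.

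Of the Notch pathway genes Dtx1, which encodes a Deltex ubiquitin ligase, had 438 bp scoring 18.29 inside the gene, 25.7 kb from an annotated start (chr5:120685747-120686184), and Notch2 had the promoter peak given above; these were 2 of 23 members. That is 8.70% of the Notch list, beside 2.05% of all genes, and 2 of its 6 peaks were wide (33.3%). Among cytokine receptor and STAT genes 3 of 31 had a wide peak (9.68%), and 4 of their 13 peaks were wide (30.8%). The kinase gene Jak1 had peaks of 481 bp (4.99) and 170 bp (5.16) inside the gene 11.8 kb apart, and the interferon-γ receptor gene Ifngr2 had 200 bp (5.75) 13.3 kb upstream. Il4ra had a narrow peak of 84 bp (8.74). Follicular helper genes had 3 of 18, with the cytokine gene Il21 (208 bp, 6.84) 17.4 kb from the gene, Cd200 (166 bp, 4.25) and Il6st. Homing genes had 2 of 20, Cd44 among them. These are 16.7% of the follicular helper list and 10% of the homing list. Of the peaks 3 of 9 and 2 of 6 were wide, 33.3% in either list, beside 27% over all genes.

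Regulatory T cell genes had a wide peak at 0 of 19 members, although 4 (Ctla4, Gpr83, Izumo1r and Prdm1) had narrow ones. Genes of Th1, Th2 and Th17 cells had 0 of 23, with narrow peaks at Il4ra and Stat4, and CD8 and cytotoxic genes had no peak at 20 members. Beside the 2.05% of all genes with a wide peak, these counts of 0 wide peaks are near the background, while the 21.1% of regulatory T cell genes with any peak stood beside 7.01%. Outside the T cell lists Fcgr3, an Fc receptor gene, had a wide peak of 167 bp (4.40) 6.18 kb from the gene, and Ly6c2 had a narrow one of 71 bp (7.18).

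Of the 423 genes with a wide peak, 22 had more than 1, and at 12 of these all the gaps were under 10 kb. Pairs at most 100 bp apart lay inside or near Dnaaf5 (9.30), Rere (7.92), a transcriptional corepressor gene, Rras2 (7.18), a Ras-related GTPase gene, Gm572 (5.99), Sypl (4.99), Prag1 (4.40), Spsb1 (4.33) and Runx1 (4.09), the gene of a T cell transcription factor; the number after each is the highest score. The pairs of Pitpnc1 (5.98) and Arid4a (4.40) were 216 and 6232 bp apart. Pairs over 10 kb apart were found at Coq2 (10.78), Gm32584 (8.26), Rap1a (5.63), a small GTPase gene, Peak1 (4.40) and Fntb (4.40), as well as at Tcf7, Tcf7l2, Znrf3, Cblb and Jak1.

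The longest peaks not yet named lay inside Tpm4, a tropomyosin gene (631 bp, 10.38), Itprip (603 bp, 9.65), Tab1 (468 bp, 5.86), an activator gene of the kinase TAK1, Arid2 (464 bp, 8.26), a chromatin remodeller subunit gene, and Zfp800 (461 bp, 6.91). Others lay 22.0 kb from Capn2 (544 bp, 8.00), 48.7 kb from Skor1 (495 bp, 11.09), 38.3 kb from Slc19a3 (442 bp, 4.99), 54.8 kb from Otud1 (486 bp, 5.63) and 67.3 kb from 1700021F07Rik (563 bp, 7.87). The pair at Rere included one of 495 bp (7.92). Of the strongest wide peaks, Ptpre, a receptor phosphatase gene related to Ptprc, had 388 bp scoring 16.79 inside the gene, 4635 bp from an annotated start. Others were at chr17:4908248-4908443, 86.0 kb from Arid1b (196 bp, 13.63), at 101 kb from Ttc8 (289 bp, 12.52) and at 110 kb from Psmg1 (353 bp, 11.45). A separate one lay inside Glb1 (249 bp, 11.45), and another 72.5 kb from Disc1 (304 bp, 11.34). Nearness to a gene is a position and does not show that the gene responds to Lef1.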

How the data were processed

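The data were 2 libraries, 1 wild-type and 1 Lef1-deficient, amplified with 18 to 21 PCR cycles per the labels' protocols. FastQC, Bowtie2 2.3.4.1, MACS2 2.1.1 and mm10 stand in the submitters' processing notes, and no source used here gives their parameters. The score is the deposited −log10 p, per the file headers. The 2052 listed peaks carry call numbers from 26 to 33876 (6.06% of them), and how they were filtered from the rest is not given. Depth is unknown.

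Members are autosomal peaks of at least 126 bp, and starts were raised by 1, assuming the BED convention. Members and lists were chosen with earlier results of these data known. Genes came from RefSeq GRCm38.p6 and starts, strand and sequence from its promoter table, which held 16457 of 20665 protein-coding autosomal genes, with no entry used for chromosome 18. Fisher's exact tests were adjusted (Benjamini-Hochberg) over the 4 planned location tests, over the 2 tests of starts and 3' ends, and over the 19 chromosomes. Tests of starts and 3' ends, width classes, 7 of the 9 motif patterns, the density inside peaks and 1 promoter per peak (the one overlapped most, in place of all overlapped windows) were chosen after seeing the data. A centre inside several genes went to the one with the nearer end.

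The rule for named peaks and genes took the 20 widest and 15 highest-scoring peaks, list genes with a wide peak, genes with several, 5 peaks on either side of the threshold, and list genes with narrow peaks alone scoring at least 6. Of list genes with narrow peaks alone, only Cd247, Csk, Il4ra, Ly6c2 and Zap70 met that rule, and the others were named outside it. A gene with several wide peaks, on chromosome 18, is not described. Some items that the rule names are not reported here, though counts include them. Python 3.11.15 and SciPy 1.17.1 were used, and the location test was tested on simulated data. Alternatives were other widths, scores, distances and gene sets, merged sites, and X and Y.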

Additional observations from a re-analysis of the deposited data

How the results depend on the processing

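Values are wide minus narrow in percentage points, with two-sided Fisher's exact tests. At a width of at least 200 bp the difference was −0.049 for gene ends, −6.53 for peaks over 50 kb from genes, 5.14 for neighbours within 10 kb and 5.16 for starts, and none of these passed. At a score of at least 5 these were 1.67, 3.42, 0.0926 and 5.19, none of which passed. Merging peaks within 1 kb ended the call for neighbours (1.98). The share inside genes, 4.71 and not past the threshold, passed at 100 bp (4.93), at the most common score alone (13.6), with X and Y (5.11) and with all annotated genes (6.21). The 3' ends, which passed nowhere, changed sign at 100 bp (0.0479) and with merged sites (0.0545). The share of wide-peak promoters with CTTTGA was 22.4% among CpG-rich ones, against 34.0%. The share of all promoters with it was lower there too, 6.98% against 14.2%. The cause of these changes was not tested. List genes with a wide peak numbered 22 to 39 over the alternatives, against 28. No chromosome passed under any of its 5 alternatives. The share of wide-peak promoters with CTTTGA was 33.3% over all overlapped windows. Tests of starts and 3' ends, the chromosome alternatives and both promoter alternatives were chosen after the data were seen. No paired analysis was possible because the single list compares 1 library with 1 other, and no replicate could be left out. Depth is unknown, so absence of a peak means only that none is listed.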
